A study of Homo sapiens with 7 samples.

Results

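Promoters of protein-coding genes that carried H3K27me3 but no H3K4me3 on the same interval were examined in HCT116 cells, an established human colorectal carcinoma line. An H3K27me3 interval was included when it was under 20 kb wide, reached within 1 kb of the transcription start site (TSS) of the canonical transcript of a coding gene, and overlapped no H3K4me3 interval. Of 55270 H3K27me3 intervals, 1262 met these conditions, and they covered 6.90 Mb in all. They touched the TSS windows of 1243 of 19881 coding genes, or 6.25%, and these genes are called marked genes. The regions were thus selected on the positions and widths of the H3K27me3 intervals and on the positions of the H3K4me3 intervals, and both are given as a description. The remaining H3K27me3 intervals were 436 under 20 kb at coding promoters with H3K4me3, 52070 under 20 kb away from coding TSS, and 1502 of 20 kb or more.

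The study sonicated crosslinked HCT116 cells with PIXUL, an ultrasound instrument for 96-well plates, and ran ChIP-seq from separate wells of 200000 cells per antibody. All wells shared the same line, 6 min of sonication and a volume of 100 µl. Peak lists of H3K4me1 (50521 intervals), H3K4me3 (16112), H3K9Ac (34164), H3K27me3 (55270), H3K36me3 (40010) and CTCF (44812) were used, each from 1 library of 1 well. There were no replicates, no other cell line and no other condition, so no difference below could be tested against replicate spread. Intervals printed with shares are 95% Wilson intervals and those with medians are 95% order-statistic intervals, and both cover counting error only. Read depth is unknown from the lists. Of 5 epithelial marker genes (KRT8, KRT18, KRT19, EPCAM and CDH1), 5 had H3K4me3 within 1 kb of the TSS and 0 had H3K27me3. Of 5 markers of other cell types, COL1A1 and VIM had both marks, CD3E was a marked gene, and PTPRC and GFAP had neither.

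Trimethylation of lysine 27 of histone H3 is deposited by Polycomb repressive complex 2, whose catalytic subunit is EZH2 or EZH1, and is associated with genes that are held silent. Trimethylation of lysine 4 of the same histone marks the starts of active or poised genes, mostly at CpG islands, where it can occur together with H3K27me3. Acetylation of lysine 9 accompanies active promoters, monomethylation of lysine 4 enhancers and promoter flanks, and trimethylation of lysine 36 the bodies of transcribed genes. CTCF binds insulators and the borders of chromatin domains through its zinc fingers. Promoter H3K27me3 without H3K4me3 is therefore read against the sequence of the promoter, the marks beside it and the kind of gene.

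The marked promoters were of contrasting base composition, as the 250 bases upstream of 3 marked genes with high H3K27me3 show. Each is printed from hg19 in the direction of transcription and ends at the base before the TSS, with CG dinucleotides in capitals. IQSEC3 (chr12:175683-175932, plus strand) has a CpG-rich start, and MRGPRX1 (chr11:18960962-18961211, minus strand) and PAX4 (chr7:127258197-127258446, minus strand) have CpG-poor ones.
IQSEC3: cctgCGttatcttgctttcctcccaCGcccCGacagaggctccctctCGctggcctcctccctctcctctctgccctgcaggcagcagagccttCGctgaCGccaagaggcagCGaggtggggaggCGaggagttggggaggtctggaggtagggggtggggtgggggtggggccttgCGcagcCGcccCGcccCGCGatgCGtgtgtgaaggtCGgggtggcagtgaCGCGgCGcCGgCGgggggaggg
MRGPRX1: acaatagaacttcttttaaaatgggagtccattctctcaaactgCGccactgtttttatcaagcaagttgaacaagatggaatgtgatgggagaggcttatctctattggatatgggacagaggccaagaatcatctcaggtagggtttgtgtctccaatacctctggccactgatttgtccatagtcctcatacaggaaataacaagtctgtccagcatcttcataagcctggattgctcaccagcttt
PAX4: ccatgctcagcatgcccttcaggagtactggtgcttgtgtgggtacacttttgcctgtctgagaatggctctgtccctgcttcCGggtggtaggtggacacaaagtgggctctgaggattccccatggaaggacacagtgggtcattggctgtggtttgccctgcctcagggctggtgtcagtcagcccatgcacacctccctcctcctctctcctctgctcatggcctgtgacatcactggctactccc
These stretches hold 20, 1 and 1 CG, respectively. Over the 1151 marked genes without H3K4me3 within 1 kb of the TSS, the median was 4 CG in 250 bases (25th to 75th percentile 2 to 11.5). The median was 5 at the 6347 other genes without H3K4me3 and 23 at the 12383 genes with H3K4me3. The upstream sequence of the marked genes was thus as poor in CG as that of other genes without H3K4me3.

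A TSS was called CpG-rich when the 500 bp on each side had at least 50% GC and a ratio of observed to expected CpG of at least 0.6. By this measure 65.1% of all coding TSS and 25.1% of those without H3K4me3 were CpG-rich. Of the marked genes without H3K4me3 within 1 kb, 23.5% were CpG-rich (21.1 to 26.0%), beside 25.4% of the other genes without H3K4me3 (24.4 to 26.5%). Among the genes with both an H3K27me3 interval of any width and H3K4me3 at the TSS, 91.2% were CpG-rich (88.6 to 93.4%). A CpG-poor start was the usual form among the marked genes, as it was wherever H3K4me3 was missing. The intervals themselves had a median GC content of 44.2% (43.7 to 45.0%), beside 54.6% at promoters with H3K4me3 (53.4 to 56.0%) and 41.7% away from coding TSS.

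The H3K27me3 enrichment of these intervals lay in a narrow range. Fold enrichment, the linear ratio of signal to background that the peak caller gives, ran from 2.42 to 5.70 with a median of 3.12 (3.10 to 3.14). The median was 3.16 at promoters with H3K4me3 (3.11 to 3.23) and 2.92 away from coding TSS. Width ran from 294 to 19914 bp with a median of 3494.5 bp (3192 to 3935 bp), beside 2188.5 bp at promoters with H3K4me3 and 1791 bp away from coding TSS. Width was used by the rule, and a wide interval reaches a TSS window more readily. The median width moved with that window, from 2822.5 bp with 2 kb on each side to 5803.5 bp with the TSS inside the interval, so nothing is read from the difference in width.

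The median −log10 of the q-value was 1.86, and 79 intervals passed the limits that the study's methods set for this mark, namely a fold enrichment over 2 at a q-value under 0.001. These 79 were 6.26% of the promoter intervals (5.05 to 7.73%), beside 2.81% of all H3K27me3 intervals. The share was 17.2% at promoters with H3K4me3 (13.9 to 21.0%) and 2.08% away from coding TSS (1.96 to 2.21%). Wide intervals passed more often, and between 10 and 20 kb the share was 16.0% at promoters without H3K4me3 (12 to 21.2%) and 10.1% away from coding TSS (9.14 to 11.2%). Below 2 kb it was 0.234% (0.0413 to 1.31%) beside 0.655% (0.567 to 0.757%). The higher share at promoters without H3K4me3 therefore did not extend to the narrow intervals.

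**Figure D1:**
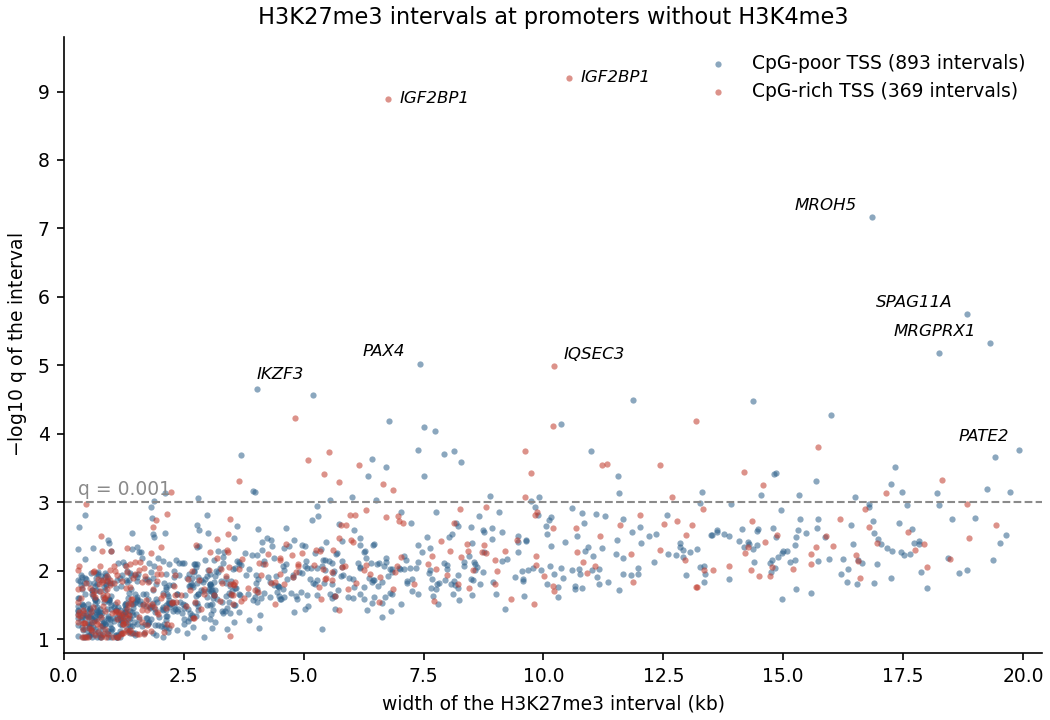
Each point is 1 of the 1262 H3K27me3 intervals, plotted by its width in kb and the −log10 of its q-value, in red where the nearest TSS was CpG-rich (369 intervals) and in blue where it was CpG-poor (893 intervals). The dashed line is the q-value limit of 0.001, which 79 intervals passed, and both intervals of IGF2BP1 lie above all others.

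The highest values were those of IGF2BP1, which encodes an RNA-binding protein of fetal tissues. This gene had an interval on each side of its TSS. The downstream interval (chr17:47075551-47086083) reached 5.70 in fold enrichment and 9.20 in −log10 q, and the upstream interval (chr17:47067090-47073843) reached 5.68 and 8.89. The 1707 bp between them, which hold the TSS, were covered by no H3K27me3 interval. An H3K4me1 interval of 817 bp lay within the downstream interval, 5976 bp into the gene, and the nearest H3K4me3 was 5745 bp from the downstream interval. Another annotated start of IGF2BP1 had H3K4me3 within 1 kb.

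MROH5 on chromosome 8 had the next lowest q-value, with 7.17 in −log10 q and 4.47 in fold enrichment. SPAG11A and SPAG11B, a pair of epididymal defensin-related genes on the same chromosome, had 4.88 and 4.67, and each interval contained the whole gene. These genes lie in duplicated sequence, and both intervals had a near-identical copy in hg19, so reads may be split or shared between them. The interval of IQSEC3, a guanine nucleotide exchange factor of inhibitory synapses, also had a copy, and its fold enrichment was 4.41. MRGPRX1, an itch receptor of sensory neurons, lay wholly within an interval of 19320 bp with a fold enrichment of 4.51. PAX4, a transcription factor of pancreatic beta cells, had 4.77 over 7419 bp that contained its TSS.

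IKZF3, which encodes the lymphocyte transcription factor Aiolos, had a fold enrichment of 4.62 over 4016 bp. Its TSS also lay within intervals of H3K4me1 (fold enrichment 6.66), H3K9Ac (4.23) and CTCF (4.92). CLEC12B, an inhibitory C-type lectin receptor, had 4.63 and none of these marks. The next genes were named for H3K9Ac, CTCF or a further TSS on the interval. GRHL3, an epidermal transcription factor, had 4.43, and its interval ended 88 bp from an H3K4me3 interval that lay 1914 bp into the gene. DRD3, a dopamine receptor, had 4.37 with CTCF (6.34) 460 bp upstream of the TSS. PRLHR, the receptor of prolactin-releasing peptide, had 4.19, and CTCF (7.28) and H3K4me1 (3.61) lay within the same interval. COL5A3 and RDH8, which start back to back, shared an interval with a fold enrichment of 3.995. The intervals of these genes, from IGF2BP1 to RDH8, were between 4016 and 19320 bp wide.

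The widest intervals were those of PATE2, a sperm-associated protein (19914 bp, fold enrichment 4.18), the olfactory receptor OR56A3 (19727 bp, 3.84) and CAPN14, a calpain of squamous epithelium (19647 bp, 3.43). SPRR2G and SDC2 followed with 19526 and 19428 bp. Just beyond the width limit were OR6C6 (20133 bp, fold enrichment 3.53), XKR7 (20270 bp, 3.72) and PZP (20297 bp, 3.79), so the limit cut through intervals of like enrichment. Most intervals touched 1 TSS window (1238 of 1262), 22 touched 2, and the most were 4, at the near-identical deubiquitinase genes USP17L24, USP17L25, USP17L26 and USP17L5. An interval of 15726 bp contained the TSS of OR10G4, OR10G9 and OR10G8.

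The place of the interval relative to the TSS differed between CpG-rich and CpG-poor promoters. In all, 690 intervals contained the TSS (54.7%, 51.9 to 57.4%), 286 lay upstream and 286 downstream. Where no H3K4me3 lay within 1 kb, the interval contained the TSS in 68.4% of those at CpG-poor starts (604 of 883, 65.3 to 71.4%) and in 28.6% of those at CpG-rich starts (82 of 287, 23.7 to 34.1%). The difference was present in each width class. Below 2 kb the shares were 39.1% (33.5 to 44.9%) and 9.76% (5.03 to 18.1%), and between 10 and 20 kb they were 97.1% (93.5 to 98.8%) and 49.3% (37.7 to 60.9%).

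Coverage by any H3K27me3 interval around the TSS showed the same contrast. Over the 270 CpG-rich marked genes without H3K4me3, coverage was 56.7% of genes at 2 kb upstream (50.7 to 62.4%), 31.1% at the TSS (25.9 to 36.9%) and 61.9% at 2 kb downstream (55.9 to 67.4%). Over the 881 CpG-poor genes it was 47.7% at 2 kb upstream (44.4 to 51%), 69.8% at the TSS (66.7 to 72.7%) and 54.4% at 2 kb downstream (51.1 to 57.6%). At 1 kb upstream and downstream, the edges of the window, it was 66.7% and 55.9% in the CpG-rich class and 61.9% and 66.6% in the CpG-poor class. CpG-rich starts were thus a low point of coverage and CpG-poor starts a high point. The rule asked for an interval within 1 kb of each TSS, which raises coverage near the TSS in both classes. Its part in the difference between the classes was not tested. The part of sequence composition in how reads are captured, aligned and called was not tested.

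**Figure D2:**
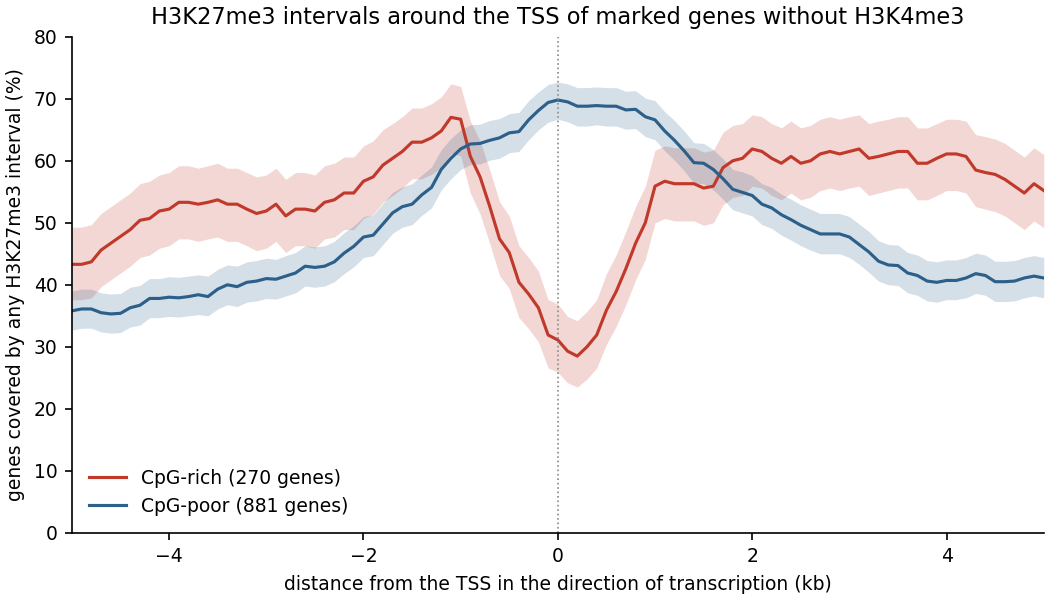
The share of marked genes without H3K4me3 that was covered by an H3K27me3 interval of any width is plotted against distance from the TSS in kb, in red for 270 CpG-rich genes and in blue for 881 CpG-poor genes, with 95% Wilson intervals shaded. At the TSS the red line is at 31.1% and the blue line at 69.8%.

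At 46 genes 2 of the intervals lay in the same window, with the TSS in the gap between them. The shortest gap between any H3K27me3 intervals of the list was 1178 bp, so a pair within 1 kb of a TSS had to lie on opposite sides of it, and this placement is no finding. The window also bounds the gap, which had a median of 1396 bp and ran from 1185 to 1931 bp. The gap had a median GC content of 59.4% and the intervals beside it 43.2%, and the gap was the higher in 39 of 46 genes. At 23 of the 46 genes the TSS was CpG-rich. Only STRIP2 and CYRIA had H3K4me3 in the window.

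Of the genes with an interval on each side, 7 are given here, chosen with their values in view. INA, a neuronal intermediate filament, had a fold enrichment of 3.56 before the TSS and 4.43 after it. SLC1A2, the main glutamate transporter of astrocytes, had 4.39 before and 4.05 after its TSS, with a gap of 1305 bp. JPH3, a junctional membrane protein of neurons, had 3.19 and 4.18, and its gap reached 76.4% GC. CACNA1A, the pore subunit of a presynaptic calcium channel, had 3.93 before and 3.66 after. RELN, a secreted guide of neuronal migration, had 3.22 before and 3.44 after, and the transcription factor PROX1 had 2.63 and 2.92. At these genes the H3K27me3 enrichment on the 2 sides was within a factor of 1.5. Fold enrichment varied little over all 1262 intervals (25th to 75th percentile 2.86 to 3.35), so this likeness is no finding. At SCGB3A2, a secretoglobin of the airway with a CpG-poor start, the GC content was 37.9% in the gap and 41.3% in the intervals.

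The label of promoters without H3K4me3 did not hold for every member. The rule asked for no H3K4me3 on the interval, and 92 of the 1262 intervals (7.29%, 5.98 to 8.86%) had H3K4me3 elsewhere in the TSS window, 81 of them at the TSS itself. Of these 92, 88 did not contain the TSS. The 92 genes were like promoters with H3K4me3 in CpG content and H3K9Ac. Of them 88.0% were CpG-rich (79.8 to 93.2%), and 92 of 92 had H3K9Ac within 1 kb. An H3K36me3 interval lay in the gene in 39.1% (29.8 to 49.3%), beside 81.1% of all genes with H3K4me3. Among genes with both H3K4me3 and an H3K27me3 interval of any width it was 29.4% (25.7 to 33.4%). The highest H3K4me3 fold enrichment of the 92 genes had a median of 15.8 (11.6 to 20.03), lower than the 22.1 over all genes with H3K4me3 (21.99 to 22.3).

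At these genes the H3K27me3 interval lay beside a promoter that carried H3K4me3. MMD, a membrane protein of the progestin and adipoQ receptor family, was the only one past the study's limits, with a fold enrichment of 3.53 and H3K4me3 at a distance of 241 bp. PPP1R14C, LZTS3 and NEDD9 had H3K4me3 at 20, 24 and 30 bp from the interval, at H3K4me3 fold enrichments of 20.04, 20.32 and 4.54. EZH1, a catalytic subunit of Polycomb repressive complex 2 itself, was in this set with an interval of 1130 bp and a fold enrichment of 2.71. Just outside the rule were EBF4, DLX3 and SNCAIP, where H3K4me3 overlapped the interval by 2, 7 and 8 bp. Without H3K4me3 in the window there were 1151 marked genes, which were 15.4% of the 7498 coding genes with no H3K4me3 there.

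The intervals met H3K4me1 and H3K9Ac more often than H3K27me3 intervals elsewhere. H3K4me1 overlapped 124 of them (9.83%, 8.30 to 11.6%), beside 3.68% of all H3K27me3 intervals and 2.66% of those away from coding TSS (2.52 to 2.80%). H3K9Ac overlapped 86 (6.81%, 5.55 to 8.34%), beside 2.34% of all and 1.41% away from coding TSS (1.31 to 1.51%). Promoter intervals with H3K4me3 had H3K4me1 in 97.0% and H3K9Ac in 98.2%. Of all genes with H3K4me3 in the window, 92% had H3K4me1 and 99.8% had H3K9Ac there. The rule divides the promoter intervals by H3K4me3, so their contrast in these marks is largely built in and is no finding.

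CTCF overlapped 104 (8.24%, 6.85 to 9.89%), beside 4.32% of all and 3.33% away from coding TSS (3.18 to 3.48%). H3K36me3 overlapped 4 (0.317%, 0.123 to 0.812%), beside 0.25% of all. The 4 included GIMAP7, a GTPase of lymphocytes, TBC1D3L, which belongs to a duplicated family, and the fetal haemoglobin gene HBG2. In all, 212 intervals (16.8%, 14.8 to 19.0%) met at least 1 of the 4, beside 5.66% away from coding TSS (5.46 to 5.86%). Most promoter intervals without H3K4me3 thus had no other called mark on them.

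Width was matched because wide intervals can meet more peaks. For H3K4me1 the share was 12.4% below 2 kb (9.59 to 15.8%) and 9.05% between 10 and 20 kb (6.05 to 13.3%), beside 2.44% and 3.40% away from coding TSS. For H3K9Ac it was 10.5% below 2 kb (7.95 to 13.8%) and 3.70% between 10 and 20 kb (1.96 to 6.89%), beside 1.38% and 1.64% (1.26 to 2.13%). The CTCF share rose with width in both classes, and between 10 and 20 kb it was 13.2% (9.48 to 18.0%) beside 11.5% (10.5 to 12.7%). The CTCF difference was therefore within counting error in the widest class, where the Wilson intervals of the 2 H3K9Ac shares also overlapped. Part of the H3K4me1 and H3K9Ac overlap came from the intervals beside an H3K4me3 promoter. Over the 1170 intervals with no H3K4me3 in the TSS window, the shares were 6.75% for H3K4me1 (5.45 to 8.34%) and 3.76% for H3K9Ac (2.81 to 5.01%). Counted over all 1262 intervals, CpG-rich starts held more of the overlaps, with H3K4me1 in 20.1% (16.3 to 24.4%) against 5.6% at CpG-poor starts (4.27 to 7.31%).

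**Figure D3:**
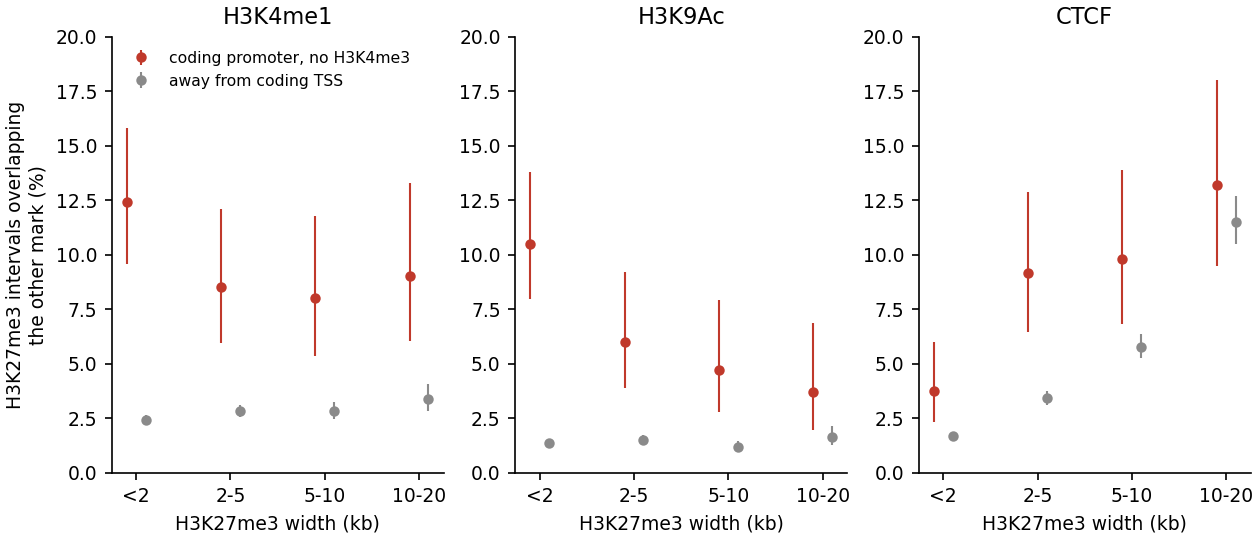
The share of H3K27me3 intervals that overlapped H3K4me1, H3K9Ac or CTCF is plotted by interval width in kb, in red for the promoter intervals without H3K4me3 and in grey for intervals away from coding TSS, with 95% Wilson intervals as bars. The red points lie above the grey ones in each panel. Between 10 and 20 kb the bars overlap for CTCF (13.2% and 11.5%) and for H3K9Ac (3.70% and 1.64%).

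Read by gene, the marked genes without H3K4me3 at the TSS carried fewer marks of activity than other genes without H3K4me3. An H3K36me3 interval lay in the gene in 5.21% (4.07 to 6.65%), beside 15.2% of the other genes without H3K4me3 (14.3 to 16.1%) and 81.1% of genes with H3K4me3. H3K4me1 lay within 1 kb of the TSS in 7.21% (5.85 to 8.85%) beside 12.8% (12 to 13.7%), and H3K9Ac in 3.74% (2.79 to 4.99%) beside 8.08% (7.44 to 8.78%). CTCF was at 6.86% (5.54 to 8.47%) beside 7.67% (7.04 to 8.35%), within counting error. Of the genes with further annotated starts, 8.49% had H3K4me3 at one of them (6.75 to 10.6%), beside 11.5% (10.6 to 12.4%). The rule allows no H3K4me3 on the intervals of marked genes, so part of this difference at further starts is built in and nothing is read from it. Median gene length was 13817 bp (12287 to 15651 bp) beside 14175 bp (13553 to 14791 bp), and the part of length in the H3K36me3 share was not tested. No expression data were used.

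The intervals were seldom isolated. The next H3K27me3 interval lay at a median distance of 2379.5 bp (2223 to 2553 bp), and in 72.3% it was within 5 kb (69.8 to 74.7%). At promoters with H3K4me3 the median distance was 12147 bp (8950 to 17970 bp), and away from coding TSS it was 2196 bp. Promoter intervals without H3K4me3 thus usually had another H3K27me3 interval close by, at a spacing like that of intervals away from coding TSS. The nearest H3K4me3 was at a median of 81586 bp (74819 to 88723 bp), beside 156601 bp for intervals away from coding TSS. A whole coding gene lay within the interval in 157 cases (12.4%, 10.7 to 14.4%). This held for 16.7% at CpG-poor starts (14.4 to 19.3%) and 2.17% at CpG-rich starts (1.10 to 4.22%).

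Among 32 gene families, the olfactory receptors, G protein-coupled receptors of the nasal epithelium, contributed most genes. Of 404 such genes, 122 were marked (30.2%, 25.9 to 34.8%), beside 15.4% of all coding genes without H3K4me3. None of the 404 had H3K4me3 in the window, and 2 of the 122 starts were CpG-rich. Those with the lowest q-values were OR56A5 (fold enrichment 3.97), OR51V1 (4.04), OR2Z1 (4.01) and OR7A17 (3.81), and 10 of the 122 genes had an interval past the study's limits. These genes stand in clusters, and marking followed the cluster. Of 21 clusters with 5 or more genes, 6 of 6 genes were marked on chromosome 19 from OR7C1 to OR1I1, 13 of 14 on chromosome 12 from OR9K2 to OR10P1 and 9 of 11 on chromosome 17 from OR1D5 to OR1E2. On chromosome 11, 16 of 24 were marked from OR6X1 to OR8A1 and 24 of 57 from OR52B4 to OR52W1. In the second of these, 43 of the 57 genes had an H3K27me3 interval of any kind in the window.

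Other clusters were nearly bare. On the same chromosome 11, 0 of 47 genes were marked from OR4A16 to OR5AK2, with an upper Wilson bound of 7.56%, and 0 of those 47 had any H3K27me3 interval. On chromosome 1, 1 of 43 was marked from OR2B11 to OR14I1 and 0 of 13 from OR10T2 to OR6N2, and on chromosome 7, 0 of 14 from OR9A2 to OR2A1. A family share of 30.2% thus stood for clusters from 0 to 100%. Near-identical copies were rare here, at 2 of the 120 intervals of olfactory receptor genes. Genes of a cluster share neighbouring intervals, so they are not independent observations.

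**Figure D4:**
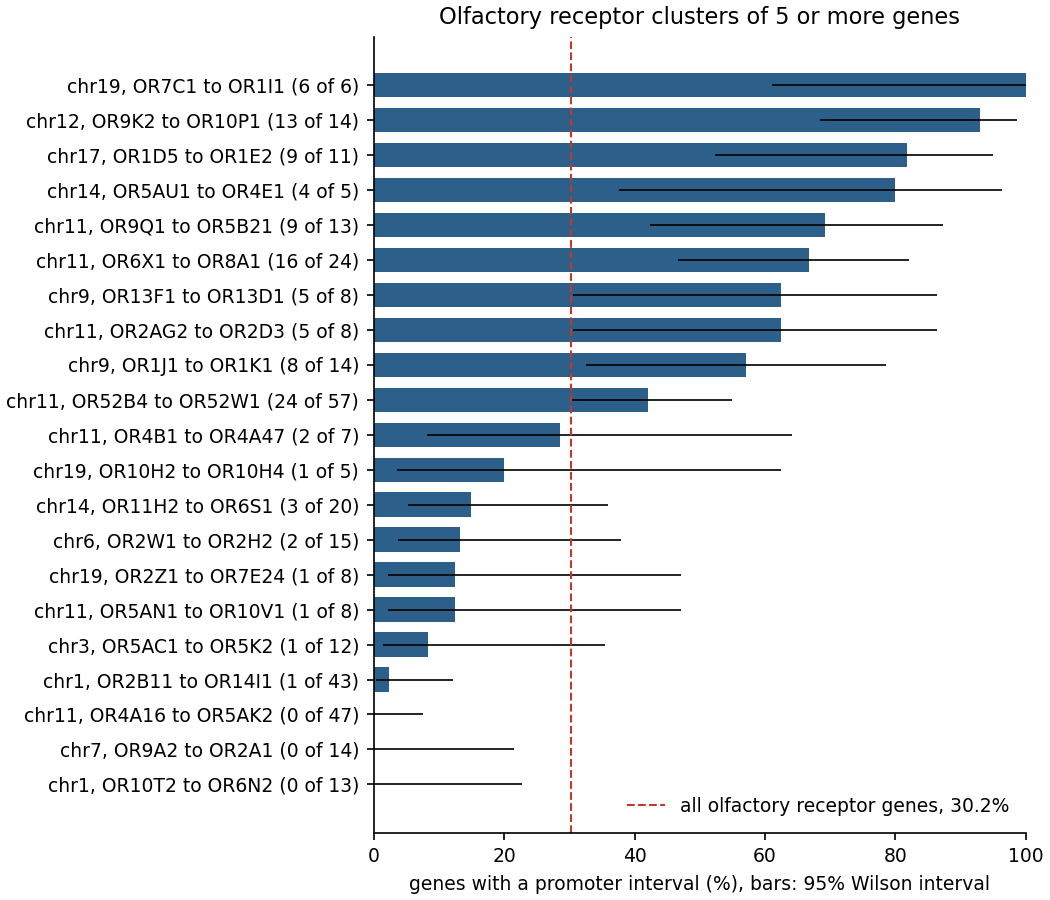
Bars give the share of marked genes in each olfactory receptor cluster of 5 or more genes, with 95% Wilson intervals, and the dashed line marks the 30.2% of all 404 genes. Cluster shares run from 0 of 47 genes on chromosome 11 to 6 of 6 on chromosome 19.

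Ion channels of excitable cells were marked at shares close to those of the olfactory receptors. Of the voltage-gated potassium channels 12 of 40 were marked (30%, 18.1 to 45.4%), of the calcium channels 8 of 26 (30.8%, 16.5 to 50%), of the sodium channels 4 of 13 (30.8%, 12.7 to 57.6%) and of the glutamate receptors 6 of 26 (23.1%, 11.0 to 42.1%). These lower bounds exceeded the 6.25% of all coding genes. Among genes without H3K4me3, with a background of 15.4%, the potassium channels stood at 40% (23.4 to 59.3%) and the calcium channels at 37.5% (18.5 to 61.4%). The sodium channels (42.9%, 15.8 to 75%) and the glutamate receptors (33.3%, 16.3 to 56.3%) had lower bounds just above it. Unlike the olfactory receptors, 9 of the 12 potassium and 7 of the 8 calcium channel starts were CpG-rich. So were 4 of the 6 glutamate receptor starts, but only 1 of the 4 sodium channel starts.

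KCNA5, a potassium channel of heart muscle, had a fold enrichment of 3.95 over 18305 bp, and KCNH1, a brain channel, had 3.74 over 12683 bp. CACNA1E, a neuronal calcium channel, had 3.82 over 18841 bp. SCN10A, a sodium channel of sensory neurons, had 3.89 over 19260 bp. GRIA1, an AMPA receptor subunit, had the lowest q-value of the glutamate receptors and a fold enrichment of 3.44. CACNA1G and SCN3B belonged to the genes with H3K4me3 in the window. The GABA receptors, also of the nervous system, had 0 of 21, with an upper Wilson bound of 15.5%, and 0 of these 21 had an H3K27me3 interval of any width.

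Signalling, matrix and metabolic families lay between. Chemokines and their receptors had 12 of 65 (18.5%, 10.9 to 29.6%), among them CCR2 (3.56) and the scavenger receptor ACKR3 (3.48). Collagens had 8 of 44 (18.2%, 9.51 to 32.0%), including COL4A1 and COL4A2, which start back to back and shared an interval with a fold enrichment of 3.70. Cytochrome P450 enzymes had 10 of 56 (17.9%, 10 to 29.8%), those with the lowest q-values being the adrenal enzyme CYP11B1 (3.73) and CYP4B1 (3.82). Among genes without H3K4me3 the shares were 20.3% (12 to 32.3%), 25.8% (13.7 to 43.2%) and 23.1% (12.6 to 38.3%). These intervals all contain the background of 15.4%.

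BMP and GDF ligands had 4 of 20 (20%, 8.07 to 41.6%), FGF ligands 3 of 21 (14.3%), ADAM and ADAMTS proteases 5 of 44 (11.4%), keratin-associated proteins 13 of 94 (13.8%), cancer-testis genes 7 of 70 (10%), serpins 3 of 35 (8.57%) and interleukins and their receptors 7 of 87 (8.05%). Solute carriers had 28 of 374 (7.49%), keratins 3 of 55 (5.45%), cadherins and protocadherins 4 of 93 (4.30%) and taste receptors 1 of 27 (3.70%). In these groups the intervals included 6.25%, apart from the BMP and GDF ligands and the keratin-associated proteins (8.26 to 22.2%). Among genes without H3K4me3, these 2 families had 33.3% (13.8 to 60.9%) and 14.4% (8.64 to 23.2%), and both intervals contain the background of 15.4%. On that measure only the interval of the cadherins and protocadherins left out the background, at 3.7% (1.27 to 10.3%). The Wilson intervals of families count genes as independent, which genes of a cluster are not. SLC17A7, a vesicular glutamate transporter, had a fold enrichment of 3.99, ADAM12 4.04, SERPINA11 3.95, FGF23, a hormone of phosphate balance, 3.51 and BMP3 3.55.

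Developmental transcription factors are often named as Polycomb targets. Among genes without H3K4me3, the homeobox and bHLH factors were marked at shares near the background. This holds for the intervals of the rule, which leaves out those on H3K4me3 and those of 20 kb or more. An H3K27me3 interval of any kind lay in the window of 32 of 179 homeobox, 17 of 55 bHLH and 5 of 50 forkhead genes. Over all coding genes it was 1909 of 19881. Homeobox factors had 19 of 179 (10.6%, 6.90 to 16.0%), and 15 of the 19 starts were CpG-rich. Their median fold enrichment was 2.92, and 0 of the 19 passed the study's limits. Only 6.26% of all 1262 intervals passed them, so this count is no finding. Those with the lowest q-values were DLX5 (3.53), EMX2 (3.52), POU4F1 (3.23) and NKX2-4 (3.18), factors of skeletal and neural development. Among homeobox genes without H3K4me3 the share was 16.2% (10.2 to 24.7%), beside the 15.4% of all such genes.

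The bHLH developmental factors had 7 of 55 (12.7%, 6.30 to 24.0%), and 16.2% of those without H3K4me3 (7.65 to 31.1%). NEUROG3, a factor of endocrine progenitors, had the lowest q-value of them and a fold enrichment of 3.68. T-box factors had 3 of 17 (TBX20, TBX21 and TBX5), GATA factors 1 of 6 (GATA4), PAX factors 1 of 9 (PAX4), forkhead factors 2 of 50 (FOXI2 at 3.76 and FOXR2 at 2.88) and SOX factors 1 of 20 (SOX14 at 3.27). WNT ligands had 0 of 19, with an upper Wilson bound of 16.8%, although 6 of the 19 had an H3K27me3 interval of another class in the window. From the T-box factors to the WNT ligands, the Wilson intervals all included 6.25%. Among genes without H3K4me3 the shares were 25% for T-box (8.89 to 53.2%) and GATA factors (4.56 to 69.9%) and 16.7% for PAX factors (3.01 to 56.4%). They were 7.41% for forkhead (2.06 to 23.4%) and 7.14% for SOX factors (1.27 to 31.5%). These wide intervals all included 15.4%.

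The ZNF genes and the housekeeping families were almost free of these intervals. Zinc finger genes named ZNF had 7 of 505 (1.39%, 0.673 to 2.83%), cytoplasmic ribosomal proteins 0 of 81 (0 to 4.53%) and proteasome subunits 0 of 39 (0 to 8.97%). Most of them had H3K4me3 in the window, with 362 of 505, 78 of 81 and 36 of 39, and the rule rarely admits such genes. Of the ZNF genes without H3K4me3, 4.2% were marked (1.94 to 8.85%), below the 15.4% of all such genes. The PRC2 subunits had 1 of 12, EZH1.

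**Figure D5:**
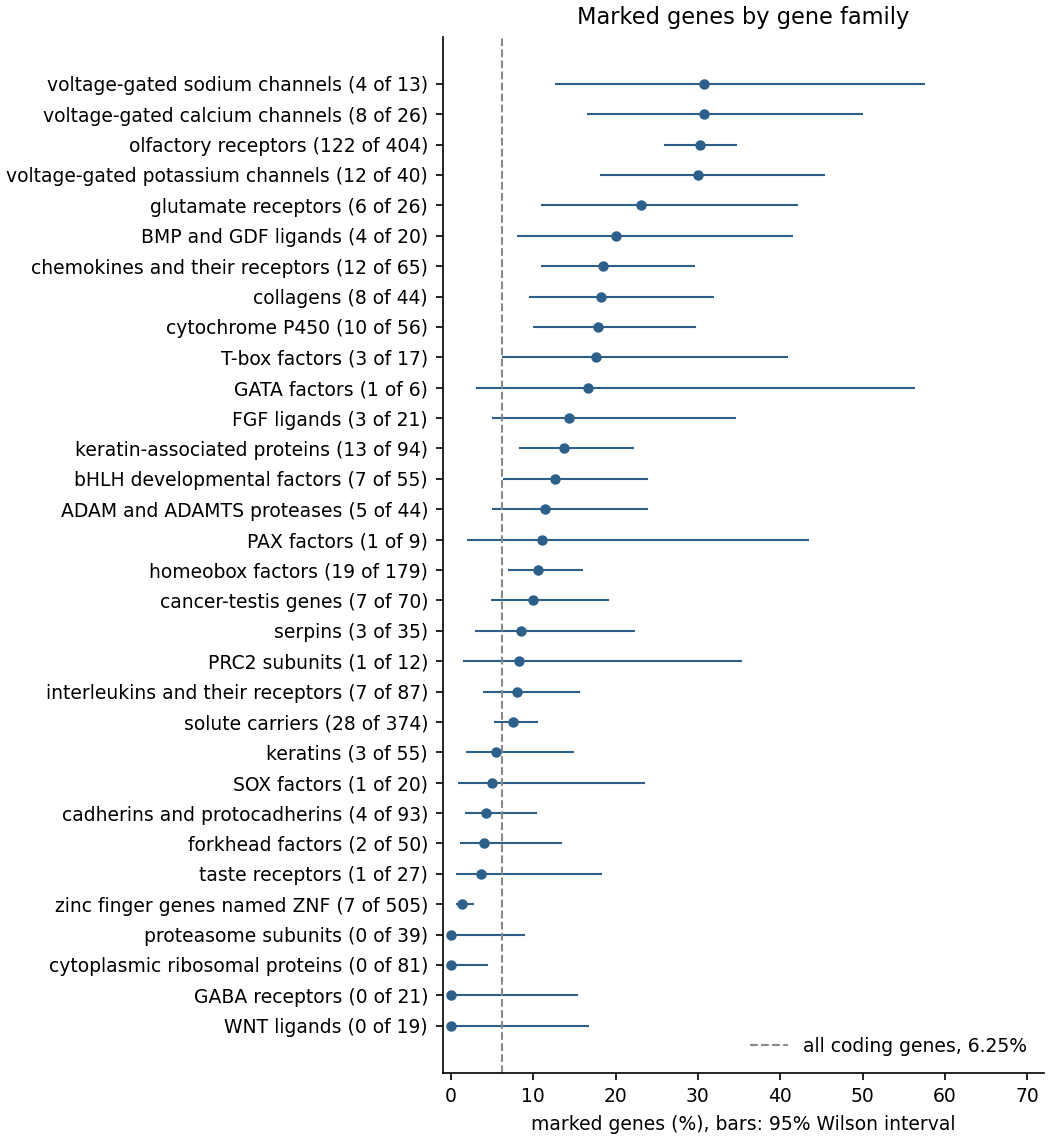
Points give the share of marked genes in each of 32 gene families with 95% Wilson intervals, and the counts stand beside the names. The dashed line is the 6.25% of all coding genes, which lies below the intervals of the olfactory receptors (25.9 to 34.8%) and above that of the ZNF genes (0.673 to 2.83%).

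The densest stretch of the genome was the epidermal differentiation complex on chromosome 1, where genes of the cornified layer of the skin lie side by side. Between 152 and 153 Mb, 21 intervals lay at a stretch with 36 coding TSS, and between 153 and 154 Mb there were 13 intervals. The small proline-rich genes, which encode precursors of the cornified envelope, were marked in 11 of 11 cases, and the late cornified envelope genes in 9 of 19 (47.4%, 27.3 to 68.3%). These families were chosen after their values had been seen, and the share was 6.25% over all coding genes and 15.4% over those without H3K4me3. The fold enrichment of the 11 small proline-rich genes ran from 2.93 at SPRR2F to 3.37 at SPRR2G, each interval contained the TSS, 0 had H3K4me3 and 0 were CpG-rich. LORICRIN, the main protein of the cornified envelope, had 3.81 and passed the study's limits. Filaggrin (FLG) and hornerin (HRNR), large proteins of the same layer, were also marked.

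Other dense stretches were likewise gene clusters. They included 15 intervals between 55 and 56 Mb of chromosome 12, mostly at olfactory receptors, and 10 between 147 and 148 Mb of chromosome 5, with the protease inhibitors SPINK1, SPINK5, SPINK6, SPINK7 and SPINK14. The SPINK genes were marked in 5 of 10 cases (50%, 23.7 to 76.3%) and the beta-defensins, antimicrobial peptides of epithelia, in 15 of 40 (37.5%, 24.2 to 53.0%), beside the same 6.25% and 15.4%. Both families were again chosen after their values had been seen. DEFB103A had the highest value of them, 4.02, and like DEFB103B, DEFB4A and DEFB4B it has a near-identical copy. In all, 77 intervals (6.10%, 4.91 to 7.56%) had a copy of at least 95% identity over at least 50% of their length, and so had 6 of the 79 past the limits.

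The marked share also differed between chromosomes. Of the genes without H3K4me3, 26.6% were marked on chromosome 20, 24.9% on chromosome 11 and 24.1% on chromosome 8, against 8.44% on chromosome 4 and 5.47% on chromosome X. H3K27me3 intervals of all kinds stood at 28.7 per Mb on chromosome 20, 22.9 on chromosome 11 and 25.6 on chromosome 8, against 11.1 on chromosome 4 and 8.88 on chromosome X. Density and share did not move together on every chromosome, since chromosome 16 had 24.7 intervals per Mb and 11.2% marked, and chromosome 18 had 20.03 and 10%. The part of this overall density in the promoter shares was not tested.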

How the data were processed

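Peak lists of 6 PIXUL-ChIP-seq libraries were used, and H3K27Ac was not analysed here. For each library, the authors used BWA 0.7.12 for alignment to hg19 and MACS2 in broad mode (broad cutoff 0.1) for peak calling, while the submitters' processing notes name MACS 1.4.2, SAMtools 0.1.19 and bcl2fastq 2.20.0.442. The authors deposited a fold enrichment ratio, a −log10 p-value, a −log10 q-value and a score for each whole interval, and the score was not used. Depth, which affects how many intervals are called and how wide they are, is unknown. The peak names of 5 lists hold the name of the line, and those of the H3K27me3 list do not.

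Canonical TSS came from GENCODE 44 on hg19, and sequence from the same genome build. Overlap required at least 1 bp. The selection was checked with bedtools 2.31.1 (difference 0) and tested on simulated data, where 600 of 600 planted intervals were recovered with 0 false ones. For CpG content, 18 TSS windows without sequence were left out. Copies were searched with minimap2 2.31. Python 3.11.15, numpy 2.4.6, pandas 2.3.3, scipy 1.17.1, pyfaidx 0.9.0.4, samtools 1.23.1 and matplotlib 3.10.9 were used.

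The members and lists were chosen with earlier results of these data known. Genes were named by rule: the 10 highest −log10 q, the 5 highest fold enrichments, the 5 widest, those next to each limit, those with most TSS, up to 3 with each of H3K9Ac, H3K36me3 and CTCF, and up to 4 per gene list by q. A gene and the upstream sequences of a pair of genes that the rule names are not reported here. Other genes, including those with 2 intervals and in dense stretches, were chosen with their values in view. No test was run on single libraries, and 95% Wilson or order-statistic intervals cover counting error only. Alternatives were the limits of the Methods, other TSS windows, starts, widths and H3K4me3 conditions, a stricter CpG criterion, and merged or copy-free intervals.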

Additional observations from a re-analysis of the deposited data

How the results depend on the processing

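No paired analysis was possible because no mark had more than 1 library and no result came from a test. Of 106 recomputed values, 54 stayed within the main interval (counts within a factor of 1.5) and 52 moved. Merging intervals within 1 kb merged 0 and says nothing about stability. The values below follow the order members, marked genes, median fold enrichment, median width, H3K4me1 share, H3K9Ac share, share past the limits of the Methods and CpG-rich share of marked TSS, each named where it moved.

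With the limits of the Methods on H3K27me3, there were 79 members and 78 genes, with a fold enrichment of 3.97, a width of 9896 bp, H3K4me1 in 21.5%, H3K9Ac in 11.4% and CpG-rich starts in 32.1%. Those limits on H3K4me3 gave H3K4me1 in 14.3%, H3K9Ac in 11.6% and CpG-rich starts in 31.0%. With no H3K4me3 within 1 kb of the interval these were 6.62%, 3.52% and 23.2%. Asking for none in the TSS window instead, with intervals free to overlap H3K4me3 beyond it, gave 1178 members and 7.30%, 4.33% and 23.5%. The main CpG-rich share, over all 1243 marked genes, was 28.2%. With the TSS inside the interval there were 690 members and 703 genes, with a fold enrichment of 3.19, a width of 5803.5 bp, H3K4me1 in 7.39%, H3K9Ac in 3.62%, 8.41% past the limits and 12.5% CpG-rich. A window of 500 bp gave a fold enrichment of 3.15, a width of 4591.5 bp, H3K9Ac in 5.25% and 18.2% CpG-rich. A window of 2 kb gave 1942 members, a fold enrichment of 3.06, a width of 2822.5 bp and 36.4% CpG-rich. A width under 10 kb gave a fold enrichment of 3.03, a width of 2615 bp and 3.93% past the limits, and no width limit gave 3.16, 4575 bp and 9.21%. Any annotated start gave 3003 members and 2061 genes, a fold enrichment of 3.06, H3K4me1 in 7.06%, H3K9Ac in 4.56%, 4.73% past the limits and, at the canonical start of these genes, 40.5% CpG-rich. Limits on the other mark gave H3K4me1 in 7.61% and H3K9Ac in 2.69%, and a stricter CpG criterion (observed to expected 0.75, GC 55%) gave 15.8%. The CpG-rich share thus rose with the reach of the TSS window, and the cause was not tested.

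Chosen after seeing the data, merging within 3 kb gave a fold enrichment of 3.04, a width of 5466 bp, H3K4me1 in 11.7% and H3K9Ac in 8.74%. Leaving out members with a near-identical copy, likewise chosen after seeing the data, moved none of the 8 results. The unknown depth limits how many weak intervals were called, and 1 library per mark allows no estimate of replicate error.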
